A study of Mus musculus with 6 samples.

Results

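Interferon-stimulated genes are the genes that cells switch on after interferon reaches its receptor, and their levels were followed here in leukemias that mice developed from marrow carrying MLL-ENL. The list held 44 such genes by name, drawn up with earlier results of these data known, and 42 of the 44 could be read among the 18194 genes of the array. For each gene the probe set with the highest mean log2 intensity over all 6 arrays stood for it. Isg15 shared its only listed probe set with another gene and Ifi44 matched none, so both were not analysed here. The 42 genes comprised 12 sensors of viral nucleic acid and their partners, 15 antiviral effectors, 8 signalling effectors and 7 genes of antigen processing.

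MLL-ENL joins part of MLL, a histone methyltransferase, to ENL, a factor of transcription elongation, and turns myeloid progenitors into leukemia. Marrow of the C57BL/6 strain received this fusion and was grafted into congenic recipients, and leukemic cells were taken when the mice became moribund. The group labelled Runx1-KO came from marrow with Runx1 excised and the group labelled Control from Runx1-intact marrow, with 3 independent leukemias on 3 arrays in each. Both groups therefore carried MLL-ENL and both had passed through a transplant. How Runx1 was excised, and the sex and age of the animals, are not given in the sources used here.

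Type I interferon binds a receptor whose kinases activate a complex with STAT2 and IRF9, which binds interferon-stimulated response elements in promoters. Interferon gamma acts at gamma-activated sites and is a strong inducer of antigen processing genes. The induced proteins detect viral RNA, block viral entry and replication, tune the signal itself, and cut and load peptides for MHC class I. Many of these genes also have a basal level in blood cells without infection.

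Array medians ranged from 24.4 to 25.99 in intensity. The background limit of an array, set by the brightest of 27 control probe sets for Bacillus subtilis transcripts, ranged from 14.1 to 22.5. Runx1 itself, read on a probe set whose place relative to the excised part is unknown here, stood at 1128, 1573 and 1630 in Runx1-KO against 680.3, 1021 and 850.0 in Control, so it did not check the labels. The Y-linked gene Eif2s3y stood at 4.0 to 6.3 in Runx1-KO and at 638.0 to 706.7 in Control, so sex and genotype cannot be told apart. The myeloid genes S100a8 and S100a9 were bright in every leukemia, at 3213 or more and 3589 or more. Other listed myeloid markers were dimmer, with Cxcr2 at 13.9 to 17.5 in Control and C1qa below background on all arrays. The Gapdh control probe set near the 3' end was brighter than that near the 5' end 7.10-fold in Runx1-KO 1 and 2.67- to 3.02-fold on the other arrays. All 6 measured erythroid markers were highest in Control 1, with a summed intensity of 5814 there and of 825.5 to 1246 on the other arrays. Of these sums Tfrc alone gave 1971 in Control 1 and 743.7 to 1196 on the other arrays.

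No interferon-stimulated gene passed the test between Runx1-KO and Control. With limma and Benjamini-Hochberg adjustment over all 18194 genes at 0.05, 0 of the 42 were higher and 0 lower, against 0.033% and 0.055% of all genes, or 0.0879% in either direction. The lowest adjusted p among them was 0.142, that of Ifitm1. At an unadjusted p under 0.05, 1 gene was higher (Ifitm1) and 3 were lower (Adar, Ifi35 and Psmb8), which is 9.52% of the 42 against a background of 12.6% of all genes. Among genes above background on at least 1 array the shares were 4 of 39 members (10.3%) and 13.7%. These shares lie near the background and are no result about the members. After quantile normalization or median centring the split was 2 higher and 2 lower, with Ifitm6 added and Adar lost.

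Most differences nevertheless lay below 0. The log2 difference, Runx1-KO minus Control, was negative in 33 of the 42 genes (78.6%), against 50.8% of all genes. Among genes above background on at least 1 array it was negative in 32 of 39 members (82.1%), against 54.6%. Its median was -0.36 over the 42, or -0.31 where dim genes were counted at their lower bound, against -0.01 over all genes. By class the median was -0.22 for sensors, -0.21 for antiviral effectors, -0.82 for signalling effectors (-0.53 at the bound) and -0.35 for antigen processing. All 8 signalling effectors and all 7 antigen processing genes had a negative fitted difference on the probe sets used. Among the signalling effectors, Usp18 was above background on 1 array only and the bound of Rtp4 was 1.02-fold. Parp14 turned to 0.026 without Control 1. These counts and medians describe a list and carry no test.

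**Figure D1:**
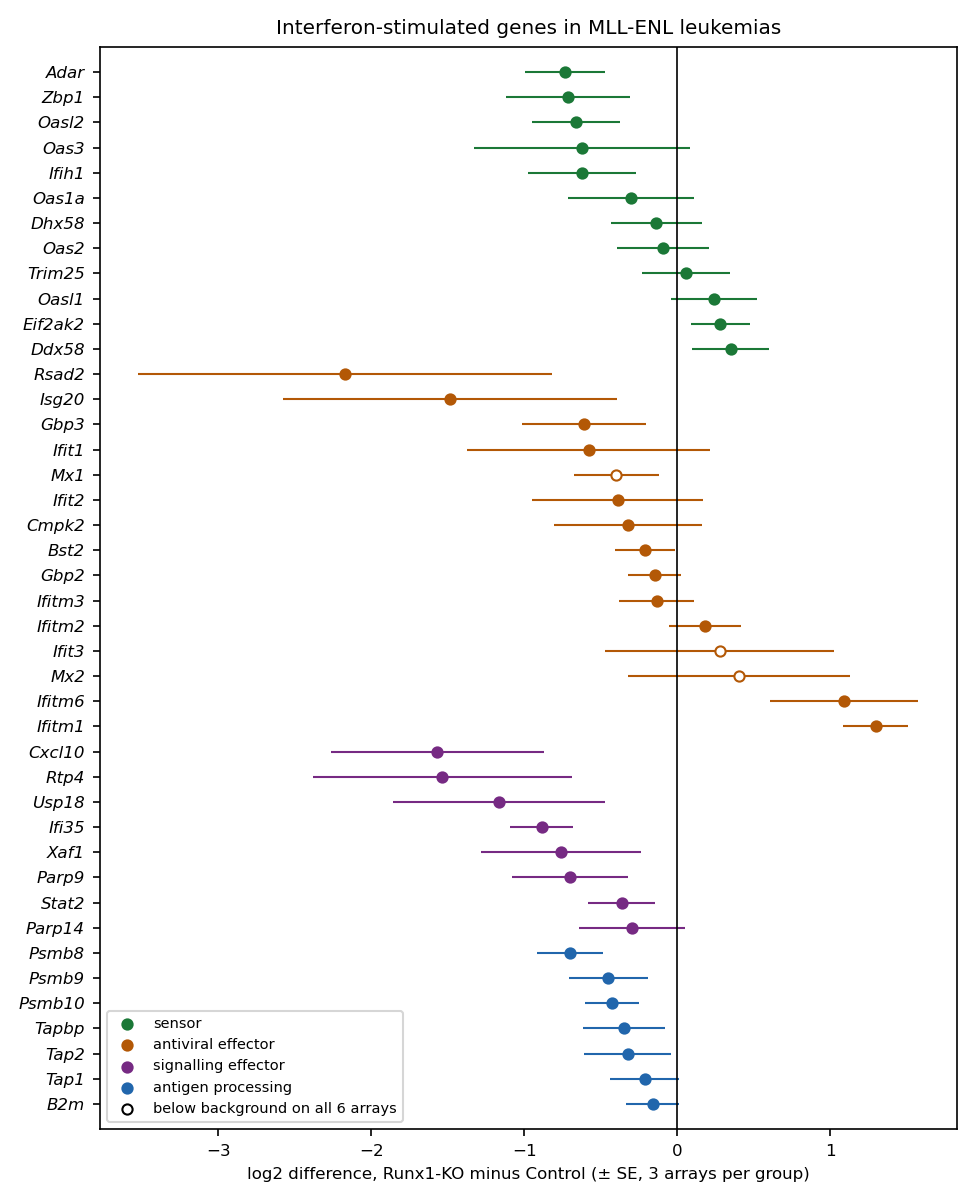
Log2 difference in intensity (horizontal axis, Runx1-KO minus Control, bars are the moderated SE, 3 arrays per group) for the 42 measured genes, coloured by class, with open circles for the 3 genes below background on all 6 arrays. The differences run from -2.17 in Rsad2 to 1.30 in Ifitm1, 33 of 42 lie left of 0, and none passed after adjustment.

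The groups were fully apart in 8 of the 42 genes (19.0%), against 20.9% of all genes. In 2 of them, Ifitm1 and Ifitm6, every Runx1-KO array was higher (background 9.17%), and in 6, Adar, Oasl2, Ifi35, Cxcl10, Psmb8 and Psmb10, every one was lower (background 11.7%). A gene with fully separate groups has p = 0.1 in the exact two-sided permutation test, the smallest that 3 arrays against 3 allow. In the other 34 genes at least 1 array lay within the range of the opposite group. Runx1-KO 1, the array with the highest Gapdh ratio, was the lowest array for Adar, Oasl2, Cxcl10, Psmb8 and Psmb10. For Ifi35 the lowest was Runx1-KO 3, and Runx1-KO 1 was the highest array for Ifitm1 and Ifitm6. Whether RNA quality had a part in these values was not tested.

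Within each group the leukemias differed among themselves in these genes. Control 2 was the highest of the 6 arrays for 19 of the 42 genes (45.2%), while it was the highest for 15.9% of all genes. Control 1 was the highest for 8, Control 3 for 4, and the 3 arrays labelled Runx1-KO for 5, 3 and 3. A Control array was thus the highest for 31 genes (73.8%, against 44% of all genes). The median deviation of the 42 genes from their own mean was 0.34 on the log2 scale in Control 2, 0.19 in Control 1 and -0.05 in Control 3, against -0.11, -0.12 and -0.23 in Runx1-KO 1, 2 and 3. The spread within Control exceeded that within Runx1-KO in 23 of the 42 (54.8%), against 37.5% of all genes. By class this held for 6 of 12 sensors, 6 of 15 antiviral effectors, 7 of 8 signalling effectors and 4 of 7 antigen processing genes. The median standard deviation of the 42 on the log2 scale was 0.39 in Control and 0.36 in Runx1-KO, against 0.28 and 0.38 over all genes.

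**Figure D2:**
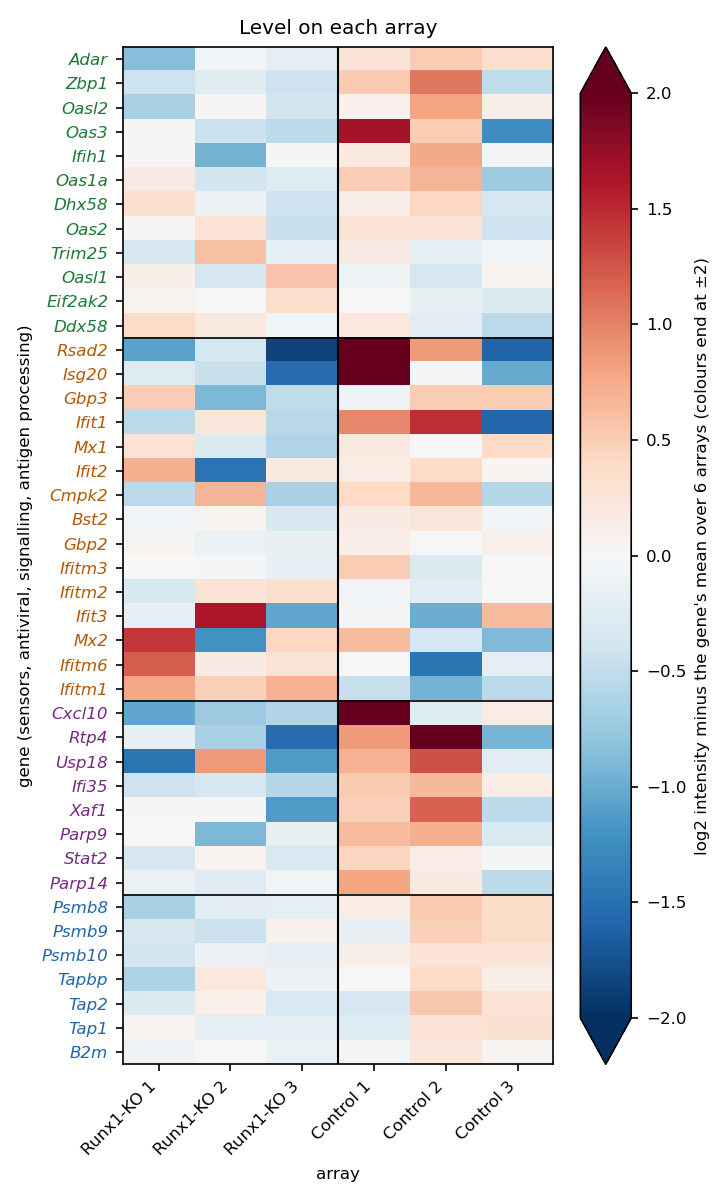
Log2 intensity on each array minus the mean of that gene over the 6 arrays, with genes in rows (label colour and horizontal lines mark the class) and arrays in columns (colours end at 2 in both directions). Control 2 is the highest array for 19 of 42 genes and Control 1 for 8, whereas sensors in Control 3 have a median deviation of -0.30.

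Several sensors and effectors stood high in Control 1 and Control 2 but not in Control 3. Ifit1, which binds viral RNA that lacks the host cap methylation, stood at 48.1 and 69.4 in Control 1 and 2 and at 8.4, below background, in Control 3. Zbp1, a sensor of Z-form nucleic acid, stood at 71.6, 102.8 and 34.7 in Control 1, 2 and 3 and at 37.2 to 41.7 in Runx1-KO. Oas1a, which makes the short adenylates that activate the nuclease RNase L, stood at 584.9, 662.8 and 249.7, against 320.8 to 465.2. On the probe sets used, Control 3 was the lowest of all 6 arrays in each of these genes. The second Zbp1 probe set ran the other way across Control 1, 2 and 3, at 12.7, 34.3 and 39.4, with a difference of 0.17. With Control 3 left out, 9 of the 42 genes were lower at an unadjusted p under 0.05 (Zbp1, Oas1a, Oas3, Ifit1, Rsad2, Ifi35, Parp9, Xaf1 and Rtp4) and 1 higher, or 23.8% against 9.23% of all genes in that fit, and 0 passed after adjustment. Zbp1, Oas1a and Ifit1 were shown for their low Control 3, and leaving out the lowest Control array moves such differences further below 0 by construction. The lower genes numbered 5 without Runx1-KO 1, 6 without Runx1-KO 2 and 2 without Control 2. In both directions together the members called were then 14.3%, 16.7% and 7.14%, against 15.6%, 12.4% and 9.88% of all genes. Lower genes numbered 3 without Runx1-KO 3 and 3 without Control 1, and members called were 9.52% and 11.9%, against 10.1% and 9.49%. The genes higher numbered 2 without Control 1 and 1 in the other fits that left out an array.

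Promoter sequence was compared because the members share an inducer. RefSeq promoter windows on build GRCm38.p6, from 250 bases before to 50 after the start, were listed for 34 of the 44 genes, in 40 windows. The core of the interferon-stimulated response element, spelled as GAAA, any 2 bases and GAAA again and searched on both strands, was in 17 of the 40 windows (42.5%), against 3.44% of all 32851 windows. The gamma-activated site TTCNNNGAA, which reads alike on both strands, was in 10 (25.0%, against 8.30%). The RUNX site, TGTGGT or TGCGGT on either strand, was in 11 (27.5%, against 22.4%). Matches of the first and the second motif overlapped in 2 windows. A match is only a match of letters and does not show binding.

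The stretches below hold the matches in genes that the results turn on, written on the strand of the gene, with the match in capitals. The first group carries the response element core and includes Rsad2 and Cxcl10, which were highest in Control 1, and Ifit1 and Oas1a, which were highest in Control 2.
Rsad2 (chr12:26456533-26456602, minus strand): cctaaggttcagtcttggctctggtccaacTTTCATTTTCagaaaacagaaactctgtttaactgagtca
Cxcl10 (chr5:92349063-92349132, minus strand): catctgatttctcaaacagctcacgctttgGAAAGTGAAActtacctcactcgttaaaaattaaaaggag
Ifit1 (chr19:34640755-34640843, plus strand): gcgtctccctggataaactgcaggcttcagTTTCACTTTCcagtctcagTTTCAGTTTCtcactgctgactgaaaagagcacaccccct
Oas1a (chr5:120907526-120907575, minus strand): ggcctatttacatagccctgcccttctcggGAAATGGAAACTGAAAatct
Ifit1 holds 2 separate matches, and the 2 matches of Oas1a overlap in 1 run close to the start.

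The second group was taken from the genes whose groups did not overlap and whose windows held no response element core. A RUNX site was also in windows of Adar, Oasl2 and Psmb10 among these genes, and a gamma-activated site in another Adar window, which are not printed. Psmb8 is shown for its gamma-activated site, and Ifi35 and Ifitm6 for a RUNX site, beside a gamma-activated site nearer their start. The Ifitm1 window held no match of any of these motifs. A RUNX site was also in windows of Gbp2, Ddx58, Isg20, Stat2, Cmpk2 and Tapbp, whose groups overlapped. Its share of member windows, 27.5% against 22.4% of all windows, lay near the background.
Psmb8 (chr17:34198068-34198136, plus strand): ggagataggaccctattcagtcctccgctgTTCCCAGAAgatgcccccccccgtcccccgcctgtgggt
Ifi35 (chr11:101448296-101448361, plus strand): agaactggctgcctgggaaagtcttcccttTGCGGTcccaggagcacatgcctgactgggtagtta
Ifitm6 (chr7:141016916-141016981, minus strand): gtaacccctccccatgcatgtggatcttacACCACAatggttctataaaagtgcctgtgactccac
Of the 32 measured genes with a window, 16 held the core and 16 did not. The groups did not overlap in 1 of the 16 with it, Cxcl10, and in 7 of the 16 without it, together 8 of 32 against 20.9% of all genes. The median log2 difference was -0.26 with the core and -0.41 without, and the median range across the Control arrays was 0.75 and 0.49. Across the Runx1-KO arrays that range ran the other way, at 0.50 and 0.81. No test was made of these differences, which were looked for after the levels were known.

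Among the RNA sensors, the lowest difference was that of Adar, the editor that converts adenosine to inosine in double-stranded RNA. Its intensity was 57.1, 99.6 and 90.8 in Runx1-KO 1, 2 and 3 and 123.3, 147.8 and 131.0 in Control 1, 2 and 3. Every Runx1-KO array lay below every Control array. The log2 difference was -0.74 ± 0.26 (SE, n = 3 per group), or 1.67-fold lower, with a limma p of 0.0298 and an adjusted p of 0.345. Of its 3 probe sets 2 were lower and 1 higher, and with their mean the difference was -0.40. On the probe set used it was -0.49 without Runx1-KO 1, the lowest array.

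The RIG-I-like receptors did not share a direction on the probe sets used. Ddx58, which encodes RIG-I, the sensor of RNA with a 5' triphosphate, stood at 79.2, 69.3 and 58.5 in Runx1-KO and at 69.9, 52.6 and 42.3 in Control. Its log2 difference of 0.35 ± 0.25 was the highest of the sensors, and the groups overlapped (limma adjusted p = 0.607). Its second probe set had a difference of -0.74, so the direction depended on the probe set. Ifih1, which encodes MDA5, the sensor of long double-stranded RNA, stood at 156.8, 80.0 and 152.2 against 175.4, 260.7 and 152.1, a difference of -0.62 ± 0.35. Dhx58, the regulator LGP2, differed by -0.14 ± 0.30 on its brightest probe set. Of its 3 probe sets 2 were higher and 1 lower, so this direction also depended on the probe set. The brighter of these 2, below background in Control 3, differed by 0.44, and the other was below background on all arrays. Trim25, a ubiquitin ligase acting with RIG-I, stood at 1363, 2548 and 1495 against 1904, 1487 and 1629, a difference of 0.06 ± 0.29 that turned to -0.22 without Runx1-KO 2, the highest array, to -0.025 without Control 2 and to -0.067 with array weights.

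Eif2ak2, which encodes PKR, the kinase that halts translation on double-stranded RNA, stood at 422.3, 400.7 and 509.7 in Runx1-KO and at 401.1, 362.0 and 331.9 in Control. Only Runx1-KO 2 and Control 1 crossed, and by little (0.28 ± 0.19, adjusted p = 0.585). The oligoadenylate synthetases Oas1a, Oas2 and Oas3 differed by -0.30 ± 0.41, -0.09 ± 0.30 and -0.62 ± 0.71. Oas3 ran from 14.2 in Control 3, below background, to 106.4 in Control 1, which spanned all the Runx1-KO values of 23.3 to 34.0. Oasl1, a relative without synthetase activity, was above background on 1 of the 6 arrays. Oasl2 was below background in every Runx1-KO array and above it in 2 of 3 Control arrays, at 20.0, 32.4 and 20.2, so it was at least 1.28-fold lower (adjusted p = 0.413).

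The 4 Ifitm genes, small membrane proteins that block fusion of viruses with the cell, were measured side by side. Ifitm1 stood at 68.1, 55.7 and 65.0 in Runx1-KO and at 29.0, 20.8 and 27.5 in Control. No array of one group reached the other, although Control lay close to its background limits of 17.0, 14.1 and 22.5. The log2 difference was 1.30 ± 0.21, or 2.46-fold higher, with a limma p of 0.000739 and an adjusted p of 0.142. It was positive under each of 16 alternatives, from 0.92 with an offset of 16 to 1.39, and its lowest adjusted p there, without genes under the median mean level, was 0.050001, so it passed in none.

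Ifitm6, a family member expressed in myeloid cells, stood at 566.1, 273.3 and 290.5 in Runx1-KO and at 245.6, 88.4 and 215.7 in Control. Runx1-KO 1 was far above the rest and Control 2 far below, and the remaining 4 arrays lay between 215.7 and 290.5. The log2 difference was 1.09 ± 0.49, or 2.13-fold (adjusted p = 0.419). Ifitm2 ran from 834.7 to 1296 in Runx1-KO and from 900.7 to 1040 in Control, a difference of 0.18 ± 0.24. Ifitm3, the best studied barrier to influenza virus, stood at 1450, 1432 and 1295 against 2063, 1197 and 1446. Its difference of -0.14 ± 0.25 became 0.080 without Control 1 and 0.050 without both arrays numbered 1. Members of this family are close in sequence, and the extent to which their probe sets cross-react is unknown here.

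Markers of mature neutrophils moved with Ifitm1 and Ifitm6. All 11 measured markers of the list were higher in Runx1-KO, 8 of them at an unadjusted p under 0.05 and 0 after adjustment. Their summed intensity was 17254 to 19849 in Runx1-KO and 9082 to 13951 in Control, and none was below background on all arrays. Most of these sums came from S100a8, at 5616 to 6478 and 3213 to 5432, and S100a9, at 5744 to 6455 and 3589 to 5150. The part of cell composition in the Ifitm values was not tested. In bulk samples a change in the number of cells of a type and a change in RNA per cell cannot be told apart.

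**Figure D3:**
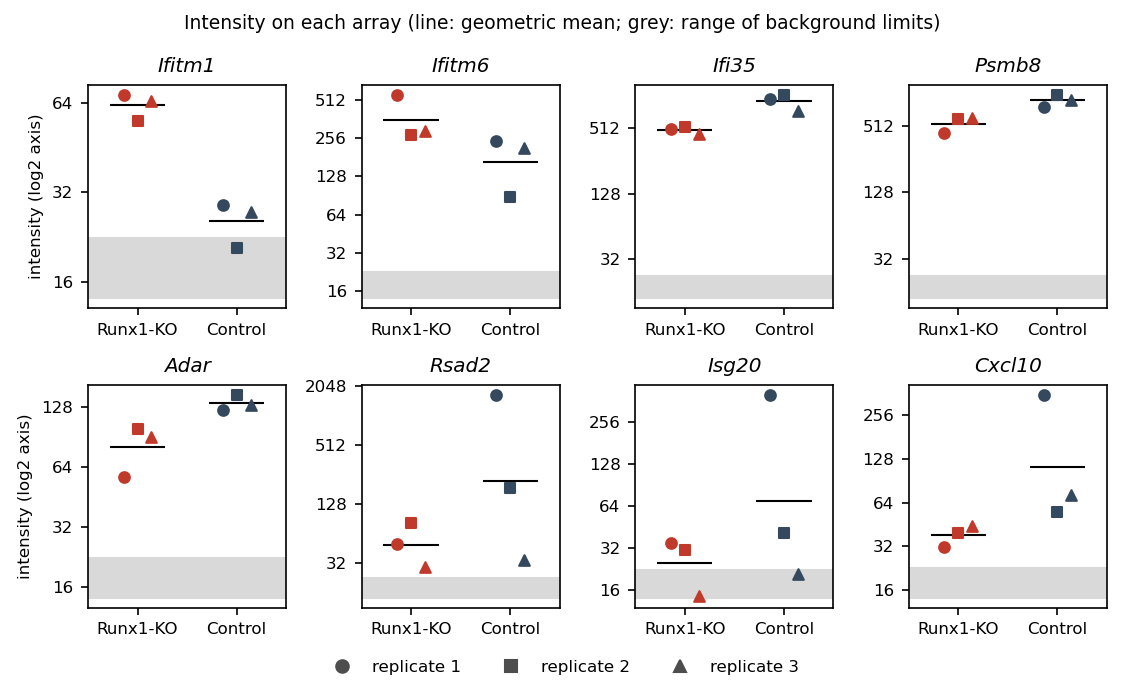
Intensity on a log2 axis for 8 genes in each array (marker shape gives the replicate number, the line is the geometric mean of 3 arrays, the grey band is the range of background limits, 14.1 to 22.5). Ifitm1, Ifitm6, Ifi35, Psmb8, Adar and Cxcl10 do not overlap between groups, and Control 1 stands 8.90-fold, 9.78-fold and 4.90-fold above the next array in Rsad2, Isg20 and Cxcl10.

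In Rsad2, Isg20 and Cxcl10 a single leukemia, Control 1, stood apart. Rsad2, which encodes viperin, an enzyme that makes a chain-terminating nucleotide, stood at 1657 in Control 1, 186.2 in Control 2 and 34.2 in Control 3, and at 49.5, 81.1 and 28.7 in Runx1-KO. Control 1 was 8.90-fold above the next array, and Control 3 lay within the Runx1-KO range. The log2 difference of -2.17 ± 1.35 was the lowest of the antiviral effectors, with an adjusted p of 0.547. All 3 Rsad2 probe sets were highest in Control 1, at 484.9 and 359.0 on the other ones. Without Control 1 the difference was -0.71, and without Control 3 it was -3.51. Cmpk2, the nucleotide kinase gene next to Rsad2, did not show this, with 140.8, 168.0 and 71.2 in Control and 74.2, 171.2 and 67.5 in Runx1-KO.

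Isg20, an exonuclease that degrades viral RNA, stood at 403.1 in Control 1, 41.2 in Control 2 and 20.8, below background, in Control 3. In Runx1-KO it stood at 34.9, 30.8 and 14.6, with the last below background, and Control 1 was 9.78-fold above the next array. The difference was at least 2.59-fold lower in Runx1-KO (fitted log2 -1.49 ± 1.09, adjusted p = 0.610). Without Control 1 the bound was 1.08-fold. Control 1 was also the array with the high erythroid markers and the highest monocyte and macrophage sum, 7481. Xist, the RNA of the inactive X chromosome, ran in the same order as Rsad2 and Isg20 across Control 1, 2 and 3, at 330.8, 85.4 and 25.3, and stood at 1624 to 1895 in Runx1-KO. The part of other cells in the Rsad2 and Isg20 signal of Control 1 was not tested.

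The remaining antiviral effectors had smaller differences or no signal. Ifit2 ran from 46.4 to 211.4 in Runx1-KO and from 132.7 to 171.3 in Control, and both the highest and the lowest array were labelled Runx1-KO. Ifit3, Mx1 and Mx2 were below background on all 6 arrays. Mx1, a GTPase that blocks influenza virus, is known to be defective in C57BL/6 mice. The guanylate-binding proteins Gbp2 and Gbp3, GTPases that attack the vacuoles of pathogens, differed by -0.15 ± 0.17 and -0.61 ± 0.41. Bst2, which encodes tetherin and holds budding virus at the membrane, differed by -0.21 ± 0.20, from 84.5 to 110.2 against 101.7 to 123.3. Ifit1 was above background on 2 of 3 arrays in each group. Its fitted log2 difference was -0.58 ± 0.80 (adjusted p = 0.799), and its bound of 1.45-fold lost its direction without Control 2.

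Among signalling effectors, Ifi35 gave the most even difference. This leucine zipper protein modulates innate signalling. It stood at 497.2, 519.6 and 448.9 in Runx1-KO and at 956.9, 1039 and 736.5 in Control. The lowest Control array was well above the highest Runx1-KO array. The log2 difference was -0.89 ± 0.21, or 1.85-fold lower, with a limma p of 0.00469 and an adjusted p of 0.221. All 3 Ifi35 probe sets were lower, by -0.89, -0.88 and -0.82. Over 16 alternatives the difference ran from -1.03 to -0.78 and the unadjusted p stayed under 0.05, while the adjusted p ran from 0.0594 to 0.435.

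Cxcl10, a chemokine that draws T cells and is induced by both interferon types, stood at 31.8, 39.3 and 43.8 in Runx1-KO and at 355.0, 55.5 and 72.5 in Control. The groups did not overlap, and Control 1 alone was 4.90-fold above the next array. Its log2 difference of -1.57 ± 0.70, or 2.97-fold lower, was the lowest of the class (adjusted p = 0.418), and it was -0.74 without Control 1. Rtp4, a chaperone of receptors, was below background in all Runx1-KO arrays and stood at 19.8, 57.1 and 5.7 in Control, where the bound of 1.02-fold lost its direction without Runx1-KO 1, Control 1 or Control 2. Usp18, which removes ISG15 from proteins and damps the receptor, was above background in Control 2 only.

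Stat2, a transcription factor of the complex that type I interferon activates, stood at 59.9, 78.6 and 60.1 in Runx1-KO and at 100.9, 82.5 and 72.6 in Control (-0.36 ± 0.22, adjusted p = 0.538). Runx1-KO 2 lay above Control 3. Parp9 and Parp14, partner proteins of the ADP-ribosyltransferase family, differed by -0.70 ± 0.38 and -0.30 ± 0.35. Parp14, the highest difference of this class, stood at 68.6, 62.6 and 71.9 against 129.8, 84.6 and 52.1, so that Control 1 and Control 3 lay on either side of all Runx1-KO arrays. It became 0.026 without Control 1 and 0.015 without both arrays numbered 1. Xaf1, a pro-apoptotic antagonist of XIAP, differed by -0.76 ± 0.52 and was highest in Control 2, at 183.7.

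In antigen processing, the 3 inducible proteasome subunits all had a negative difference, and none passed the test. Psmb8, the LMP7 subunit of the immunoproteasome, stood at 441.2, 593.8 and 605.4 in Runx1-KO and at 769.1, 992.6 and 894.3 in Control, without overlap. The log2 difference was -0.70 ± 0.22, or 1.63-fold lower, with a limma p of 0.0168 and an adjusted p of 0.304. With the mean of both Psmb8 probe sets, the second of them below background on all arrays, the difference was -0.24. It was then not past an unadjusted p of 0.05, nor was it without Control 2 (-0.62) or without Control 3 (-0.69). Psmb10, the MECL-1 subunit, stood at 398.0, 475.3 and 459.0 against 557.8, 614.1 and 615.0, again without overlap (-0.43 ± 0.18, adjusted p = 0.397). Psmb9, the LMP2 subunit, stood at 634.3, 592.1 and 841.0 against 710.6, 1108 and 1024 (-0.45 ± 0.26, adjusted p = 0.514), and Runx1-KO 3 lay above Control 1.

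Tap1 and Tap2 encode the 2 chains of the transporter that moves peptides into the endoplasmic reticulum. Tap1 is read in the opposite direction from Psmb9, and their 300-base windows share 275 bases. Tap1 stood at 265.6, 225.1 and 221.7 in Runx1-KO and at 213.9, 307.4 and 314.3 in Control (-0.21 ± 0.23). Control 1 was the lowest array for Tap1 and for Tap2, which differed by -0.33 ± 0.28. Tapbp, the chaperone tapasin that bridges transporter and MHC class I, differed by -0.35 ± 0.27. B2m, the invariant light chain of MHC class I, stood at 3505, 3727 and 3424 against 3675, 4386 and 3882, a difference of -0.16 ± 0.17 with groups that overlapped at Control 1.

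Markers of monocytes and macrophages moved in the same direction as Ifi35, Psmb8 and Cxcl10. All 11 measured markers were lower in Runx1-KO, 8 of them at an unadjusted p under 0.05 and 0 after adjustment. Their summed intensity was 2946 to 3353 in Runx1-KO and 4654 to 7481 in Control, and C1qa was below background on all arrays. Of 9 measured T and NK cell markers 7 were lower, with sums of 252.8 to 281.7 against 335.9 to 419.8, and Cd4, Ncr1 and Gzmb were below background on all arrays. Prf1 alone gave 181.6 to 208.1 and 231.2 to 309.1 of these sums. It was the 1 marker of the 9 above background on all arrays, and Cd8a was higher in Runx1-KO, by 0.35. Siglech, a marker of the plasmacytoid dendritic cells that make type I interferon, was below background on all 6 arrays. Ccr9, Tcf4, Klk1 and Cox6a2 of the same list were above background on all 6 arrays, and Ly6d on some of them. The sums of that list overlapped, at 512.8 to 733.1 and 445.2 to 937.1. The part of these cells in the values was not tested.

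Beyond the members, 112 further genes of the pathway were listed and 85 were measured. Of these, 0 passed after adjustment with limma. At an unadjusted p under 0.05, 3 were higher (3.53%) and 15 lower (17.6%), against 5.62% and 7.01% of all genes. Ifi203 among the higher, and Ifna9 and Ifng among the lower, were below background on all arrays. The 85 genes had a median log2 difference of -0.11, between the members and all genes. Interferon genes themselves gave little signal, and 7 of the 9 measured, Ifnb1 and Ifng among them, were below background on all arrays. Ifna5 was above background on 1 array, and Ifna1 stood at 28.9 to 48.3 in Runx1-KO and 37.5 to 48.8 in Control.

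The receptor genes had a median difference of 0.15. Ifngr2, a chain of the interferon gamma receptor, differed by 0.25 ± 0.34 and Il10rb, a chain shared with interferon lambda, by 0.53 ± 0.42. Ifnlr1, the other chain of the lambda receptor, was below background in all Control arrays and above it in 2 of 3 Runx1-KO arrays, so that it was at least 1.20-fold higher (limma adjusted p = 0.273). Among the adaptors that link sensors to interferon, Myd88 differed by 0.54 ± 0.23, Mavs by -0.38 ± 0.22 and Tbk1 by 0.34 ± 0.20. None of the 10 measured adaptors passed, before or after adjustment.

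Of 11 measured kinases, STATs and IRFs, 4 were lower at an unadjusted p under 0.05, against 7.01% of all genes, and all 4 were interferon regulatory factors. Irf1 and Irf5 of the same family differed by 0.18 ± 0.27 and 0.07 ± 0.19. Irf2, which can repress or activate interferon-responsive promoters, stood at 67.8, 43.3 and 30.05 in Runx1-KO and at 199.4, 114.4 and 147.0 in Control. Its log2 difference was -1.75 ± 0.37, or 3.36-fold lower, with an adjusted p of 0.195 by limma. Irf8, a factor of monocyte development, had a difference of -1.30 ± 0.34 and Irf3, the factor that switches on Ifnb1, one of -1.03 ± 0.28. Irf9, the partner of STAT2 named as the fourth of them, stood at 59.2, 40.6 and 57.4 against 133.6, 77.2 and 74.5 (-0.83 ± 0.30, adjusted p = 0.355). None of these passed after adjustment.

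The regulators Ptpn6, a phosphatase that acts on JAK signalling, Samhd1, which depletes nucleotides, and Rnf135, a ligase for RIG-I, had differences of -0.64 ± 0.20, -1.10 ± 0.43 and -0.55 ± 0.22. They had the lowest p of 8 measured regulators, 3 of which were lower at an unadjusted p under 0.05, against 7.01% of all genes. Of 31 further interferon-stimulated genes, 26 had a negative difference, and the median was -0.52, or -0.31 at the bound. Sp100, a nuclear body protein, stood at 493.3, 376.2 and 387.3 against 920.2, 844.6 and 731.0, a difference of -0.99 ± 0.20 (limma adjusted p = 0.190). Slfn5, a Schlafen family gene, stood at 25.4, 22.98 and 29.2 against 177.1, 115.0 and 55.1, or 4.04-fold lower with an adjusted p of 0.200 by limma. Phf11d was at least 2.67-fold lower, with 1 of 3 Runx1-KO arrays above background.

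The MHC class I chains and loading genes outside the members had a median difference of -0.03. None of the 10 measured was past an unadjusted p of 0.05, and in none did the groups separate. H2-D1, a classical class I heavy chain, differed by -0.28 ± 0.19, Psme1, an activator subunit of the proteasome, by -0.12 ± 0.17, and Calr, the chaperone calreticulin, by -0.10 ± 0.21.

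**Figure D4:**
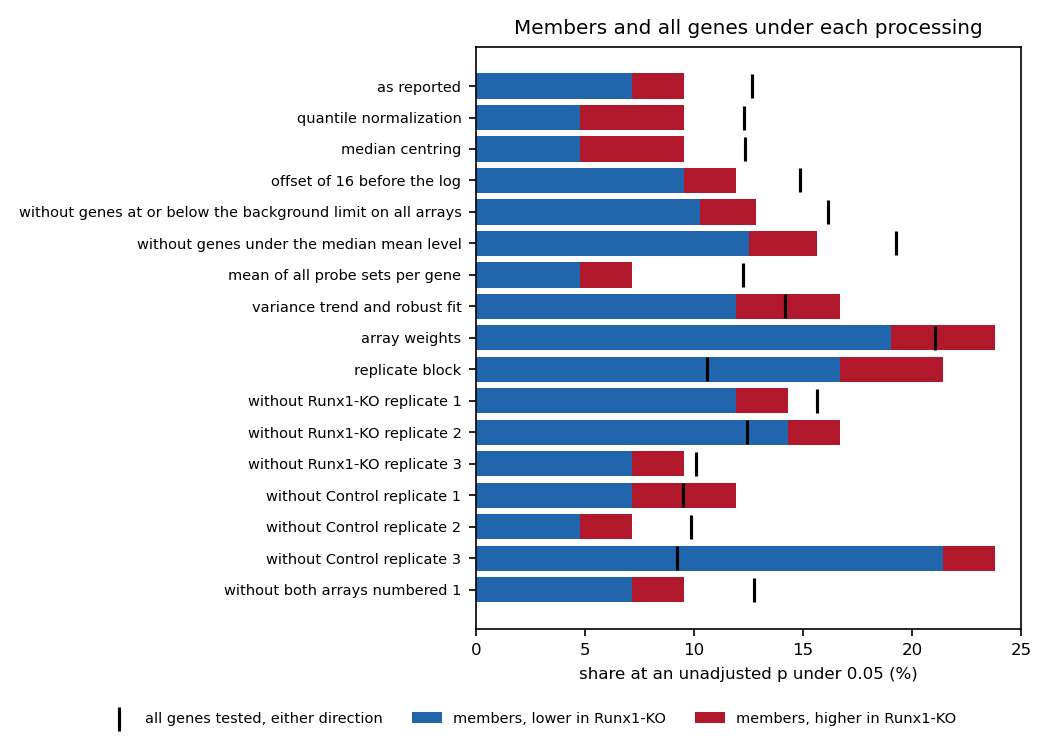
Share of the measured interferon-stimulated genes at an unadjusted p under 0.05 (bars, lower in blue and higher in red) and the same share of all genes tested (black ticks) under the reported processing and 16 alternatives. The members stand at 9.52% against 12.6% as reported. Their highest share, 23.8%, is reached without Control 3 (against 9.23%) and with array weights (against 21.1%).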

How the data were processed

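The authors deposited linear intensity values of 45101 probe sets for 6 one-colour Affymetrix mouse arrays of biotin-labelled cDNA, per the labels and the platform table. Probe summary, background correction and scaling are not given in the sources used here. Of the probe sets, 34958 had 1 symbol, 932 several and 9211 none in the platform annotation, and those with several or none were left out. Intensities were taken to log2 and compared with limma 3.58.1 in R 4.3.3, two-sided, without covariate or filter, on 18194 genes. The script was tested on simulated data. A gene at or below the background limit was raised to it on the lower side before a fold was given as at least that value. The members and lists were chosen with earlier results of these data known. Members were named in full by lowest p, brightness and extreme difference in each class, and pathway genes as the 3 of lowest p above background. Irf9, Ifitm6, Isg20, Zbp1, Eif2ak2 and others beyond this rule were chosen after their values were seen. Precision was limited by 3 arrays per group.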

Additional observations from a re-analysis of the deposited data

How the results depend on the processing

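Over 16 alternatives 0 of the 42 genes were higher and 0 lower after adjustment. Genes higher at an unadjusted p under 0.05 numbered 2 in place of 1 with quantile normalization, median centring, the robust fit with a variance trend, weighted arrays and the replicate block. Genes lower numbered 5 in place of 3 with the variance trend, 8 with weighted arrays and 7 with the replicate block. In either direction the members called were then 16.7%, 23.8% and 21.4%, against 14.2%, 21.1% and 10.6% of all genes. The deviations of same-numbered arrays correlated at -0.01, -0.13 and 0.08, and 1 of 6 arrays correlated best with its own number. The labels name no link between them, and 3 such values cannot decide whether they share a batch. With 1 array left out, genes higher ranged from 1 to 2 and genes lower from 2 to 9. The median ran from -0.44 to -0.24. Of 176 values of the 11 genes named by rule, 169 kept their direction and 7 turned. They were Trim25 with weighted arrays (-0.067), and with 1 array left out, where it ran from -0.22 to 0.23, and Ifitm3 and Parp14 without Control 1, where they reached 0.080 and 0.026, and without both arrays numbered 1 (0.050 and 0.015). The lowest values of these with 1 array left out were -0.31 and -0.63. Of the 85 pathway genes, 1 (Sp100, limma adjusted p = 0.0431) passed with the variance trend. In an alternative added after the data were seen, with 1 array left out, the log2 bound of Ifit1 ran from -1.46 to 0.059 and that of Rtp4 from -0.87 to 0.78. The causes were not tested. Signal near background limits Ifitm1, Oasl2, Ifit1, Isg20, Rtp4 and Usp18.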
